A study of Mus musculus with 12 samples.

Results

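The coagulation and complement factors that the liver secretes into blood were followed as 39 transcripts, named by symbol in a list, out of 13554 genes in the deposited table. The list holds 22 coagulation and fibrinolysis genes (F2 to Apoh) and 17 complement genes (C2 to Vtn). Every listed symbol was found, and all 39 passed the filter on low values, which kept 12570 genes for testing. RNA was sequenced from livers of wild-type (WT) male C57Bl/6J mice taken on day 3 after partial hepatectomy, an operation in which part of the liver is cut away and the remnant regrows. PH80_HC livers had an 80% resection in an arm called HC, an abbreviation that is not spelled out in the sources used here. PH80_G+H livers had an 80% resection together with G-CSF (granulocyte colony-stimulating factor) and HNF4a, a nuclear receptor that keeps liver genes active, and the sources used here leave out the amount, route and schedule of both. PH80 livers had the 80% resection alone, and PH70 livers had a 70% resection alone. Each group had 3 libraries, every mouse had lost liver, and livers without resection were not analysed here. The labels do not state whether the libraries of a group stem from different mice, so p-values measure the spread between libraries, which may be technical.

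Hepatocytes make most circulating clotting factors, their inhibitors and most complement proteins. In coagulation, a chain of serine proteases ends in thrombin, which turns fibrinogen into fibrin, while antithrombin and the protein C system restrain the chain and plasmin dissolves the clot. In complement, the classical, lectin and alternative routes each build an enzyme that cleaves C3, after which the terminal components assemble a pore in the target membrane. Several of these genes, among them fibrinogen and C3, are also acute phase genes, whose transcription in hepatocytes rises with inflammatory cytokines.

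Values are normalised reads, that is, reads divided by a size factor per library, with 9720887 to 44526542 reads per library. The libraries were of liver by their markers: 10 hepatocyte markers, with albumin among them, took between 14.2% and 20.3% of all values of a library. Libraries also differed within groups. The slope of log2 expression on log2 transcript length was lowest in PH80_HC replicate 3 (-0.284) and PH80 replicate 1 (-0.192), highest in PH80_G+H replicate 2 (0.239) and PH70 replicate 3 (0.229), and it lay between -0.0667 and 0.112 in the other libraries. Acute phase genes were high in 2 PH80_HC libraries (replicates 1 and 3) and 1 PH80 library (replicate 2), the library with the most neutrophil marker reads. The sum of all values was higher in PH80_HC replicates 1 and 3 (29177683 and 30500982) than in the other libraries (21050650.0 to 24420465).

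Per kilobase of transcript, the 39 genes spanned a wide range, and the fibrinogen chains stood at the top. Averaged over 12 libraries, the highest levels per kilobase were 79601 for Fgg and 60541 for Fga, followed by 48329 for C3, 44511 for Fgb and 38052 for Vtn, the gene of vitronectin. These 5 genes lay between the 99.7 and 99.8 percentiles of all genes in the table. The lowest level per kilobase was 332 for Masp1, a protease of the lectin pathway, at percentile 74.8, and the next lowest were 609 for Pros1 (protein S) and 725 for F11 (factor XI). C2 (755), Klkb1 (812), F5 (875), C1ra (1034) and F7 (1132) came next above them on this per-kilobase scale. Serpinf2 at 13645 and Mbl2 at 13621 lay next to each other in this order, and differences between genes were not tested. Within-group spread also differed between genes: the SD over libraries on the log2 scale was largest for Fga (0.68), F13b (0.63) and C8g (0.61) and smallest for Serpind1 (0.18) and Apoh (0.15), against a median of 0.28 for the coagulation genes, 0.33 for the complement genes and 0.32 for all genes tested.

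Promoter sequences are shown for the 3 fibrinogen genes, whose levels varied together between libraries, and for 3 of the genes that passed the test in PH80 against PH70. They are RefSeq windows on GRCm38.p6, from 250 bases before to 50 bases after the start that RefSeq gives, written 5′ to 3′ on the gene's own strand. Capitals mark matches to GTTAAT, part of the site of the hepatocyte factor HNF1, or to TTCCNGGAA, a STAT site, on either strand (ATTAAC is GTTAAT read on the other strand).
Fga, chr3:83025903-83026202, plus strand: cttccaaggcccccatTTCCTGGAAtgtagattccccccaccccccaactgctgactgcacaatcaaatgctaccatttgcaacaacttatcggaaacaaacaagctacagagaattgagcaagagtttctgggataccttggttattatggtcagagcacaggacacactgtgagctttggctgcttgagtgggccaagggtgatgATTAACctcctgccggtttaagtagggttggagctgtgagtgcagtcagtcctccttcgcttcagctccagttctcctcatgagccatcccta
Fgb, chr3:83049814-83050113, minus strand: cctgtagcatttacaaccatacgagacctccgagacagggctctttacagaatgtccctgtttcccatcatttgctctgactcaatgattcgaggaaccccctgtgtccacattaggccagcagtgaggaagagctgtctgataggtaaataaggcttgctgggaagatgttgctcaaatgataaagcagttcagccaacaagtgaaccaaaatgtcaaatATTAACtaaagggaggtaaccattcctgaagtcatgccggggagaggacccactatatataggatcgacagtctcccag
Fgg, chr3:83007474-83007773, plus strand: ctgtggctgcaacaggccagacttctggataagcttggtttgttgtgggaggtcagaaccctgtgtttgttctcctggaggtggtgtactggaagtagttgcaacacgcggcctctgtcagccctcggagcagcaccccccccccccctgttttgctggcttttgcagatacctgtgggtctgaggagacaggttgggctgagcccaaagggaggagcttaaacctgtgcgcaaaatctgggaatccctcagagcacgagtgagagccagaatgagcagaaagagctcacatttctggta
Klkb1, chr8:45294786-45295085, minus strand: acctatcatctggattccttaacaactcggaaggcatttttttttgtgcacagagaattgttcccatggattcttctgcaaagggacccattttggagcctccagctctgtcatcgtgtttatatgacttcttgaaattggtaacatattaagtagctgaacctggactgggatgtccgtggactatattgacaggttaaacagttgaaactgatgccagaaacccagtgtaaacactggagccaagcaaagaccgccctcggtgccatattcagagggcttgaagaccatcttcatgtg
C8b, chr4:104766067-104766366, plus strand: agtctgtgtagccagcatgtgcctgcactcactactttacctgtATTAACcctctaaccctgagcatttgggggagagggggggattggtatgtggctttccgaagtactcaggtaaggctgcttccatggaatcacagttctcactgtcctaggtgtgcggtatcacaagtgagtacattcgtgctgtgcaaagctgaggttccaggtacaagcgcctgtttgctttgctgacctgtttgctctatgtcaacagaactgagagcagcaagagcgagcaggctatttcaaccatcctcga
C1ra, chr6:124512371-124512670, plus strand: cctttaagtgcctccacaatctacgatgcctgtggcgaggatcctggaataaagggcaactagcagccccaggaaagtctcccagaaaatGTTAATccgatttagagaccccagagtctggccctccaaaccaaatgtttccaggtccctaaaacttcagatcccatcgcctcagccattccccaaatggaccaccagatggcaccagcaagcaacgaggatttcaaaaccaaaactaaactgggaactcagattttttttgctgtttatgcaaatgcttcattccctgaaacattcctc
Such windows were found for 31 of the 39 genes, 19 of coagulation and 12 of complement. GTTAAT matched on either strand in 9 of 31 (29.0%), namely F2, F13b, Fga, Fgb, C8a, C8b, C1ra, C4bp and Vtn, against 8.24% of 27025 promoters of the same length. By group these were 4 of 19 coagulation and 5 of 12 complement promoters. TTCCNGGAA matched in Fga and Pros1 (6.45%, against 1.35% of all promoters). The RefSeq start lies 77 bases after the GENCODE gene start in Fga, 216 bases after it in C1ra and 24 bases after it in Klkb1, and the starts are the same in Fgb, Fgg and C8b. Counted in bases from the start, with negative positions before it, the match to GTTAAT began at -29 in Fgb and at -206 in C8b. In Fga it began at -43 from the RefSeq start, which is 34 bases after the GENCODE start. In C1ra it began at -160 from the RefSeq start, which is 56 bases after the GENCODE start. Neither motif was found in the Fgg and Klkb1 windows. The full HNF1 site, the HNF4 site CAAAGTCCA, the direct repeat DR1 of nuclear receptors, the C/EBP site TTGCGCAA and the D-box TTATGTAA matched in 0 of the 31 windows, against 0.0111%, 0.555%, 0.0481%, 0.207% and 1.11% of all promoters. With shares this low among all promoters, 0 matches in 31 windows cannot show that such sites are lacking. The GTTAAT letters lie within the full HNF1 site, and a match is a description of letters only.

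The first comparison asks how the larger resection differed from the smaller. In PH80 livers, 4 of the 39 genes fell relative to PH70 and 0 rose (limma with Benjamini-Hochberg adjustment over all genes tested, adjusted p under 0.05, differences on the log2(value + 1) scale), against 3.82% of all genes called in either direction and 2.73% called lower. They were Klkb1 among 22 coagulation genes, a share close to that of all genes, and C8b, C2 and C1ra among 17 complement genes. Of the 39 genes, 38 had a lower mean log2 value in PH80 than in PH70, the exception being Cpb2. That count was 33 with every library scaled to the same total and 34 after quantile normalisation. Lower means were also found in 10 of 10 hepatocyte markers and 17 of 18 listed hepatocyte transcription factors, so this direction is not particular to the 39 genes. Over all genes it was 6113 of 12570. The median log2 difference was -0.48 for the coagulation genes and -0.64 for the complement genes, against 0.014 for all genes tested. At the same total these were -0.36 and -0.52, against 0.13 for all genes. In 14 of 22 coagulation and 8 of 17 complement genes every PH80 library lay below every PH70 library, against 14.2% of all genes. An unadjusted p under 0.05 was found in 10 of 22 and 8 of 17, against 21.4% of all genes. In bulk liver RNA, fewer cells of a type and less RNA per cell cannot be told apart.

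**Figure D1:**
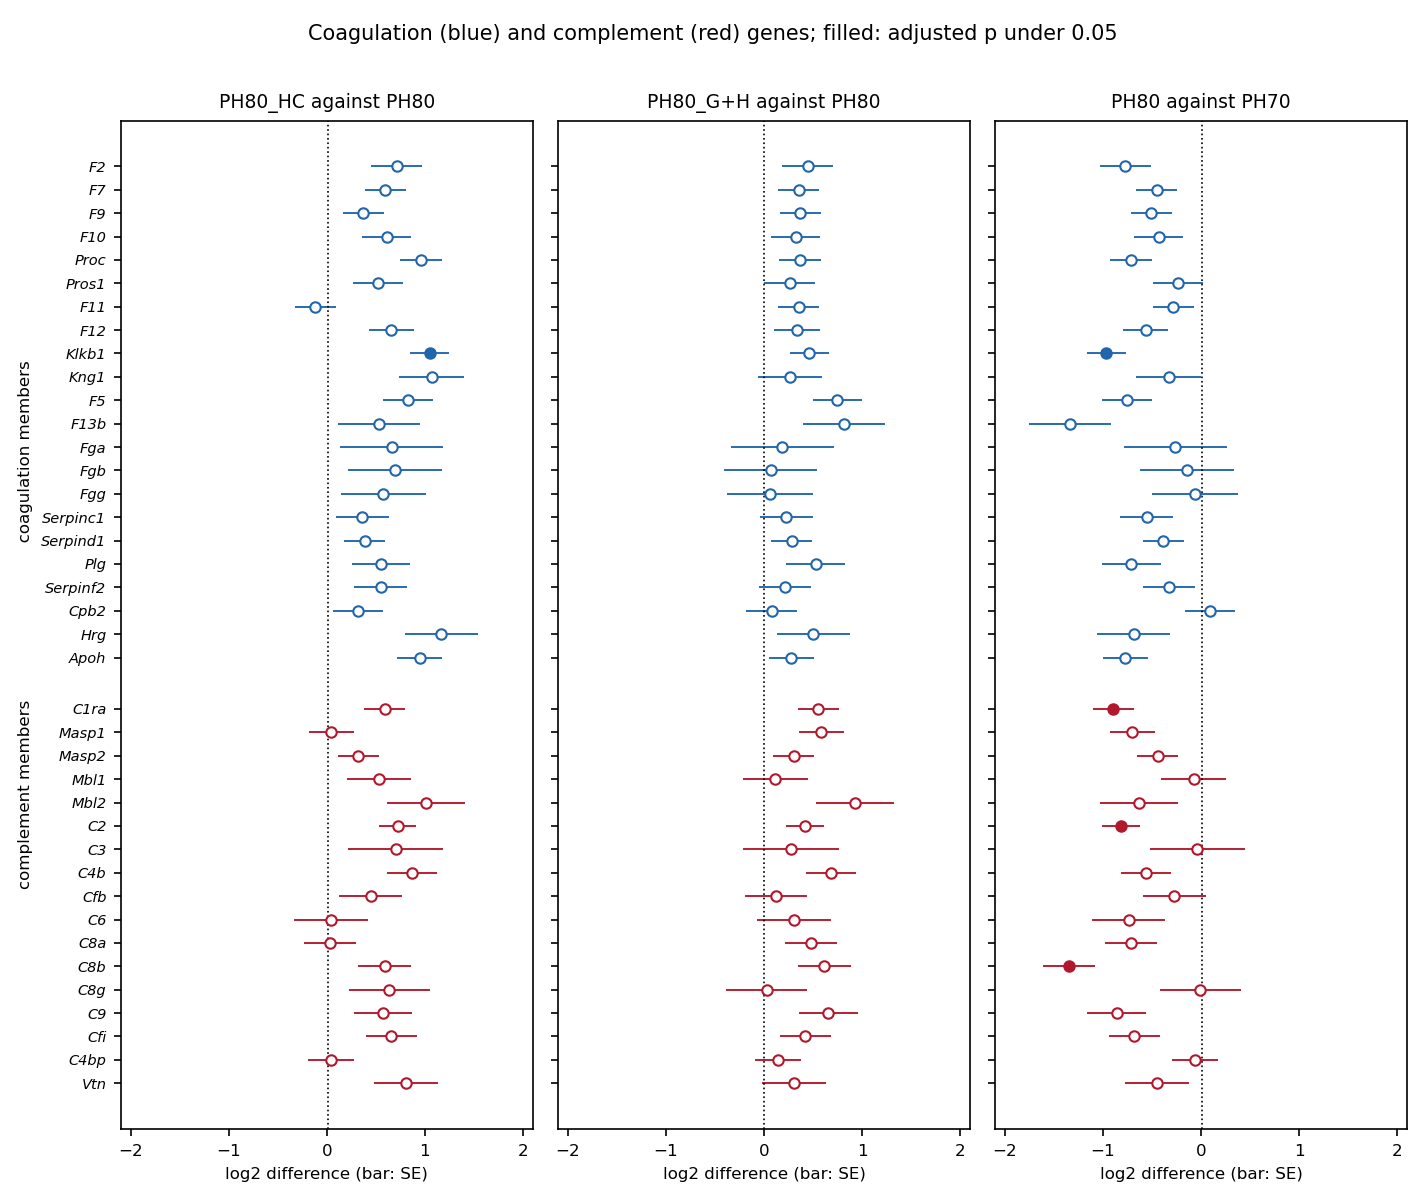
Log2 difference per gene (x axis, log2(value + 1) scale; bars, SE; n = 3 libraries per group) for 22 coagulation genes (blue) and 17 complement genes (red) in 3 comparisons, with the median of all tested genes as a dotted line. Filled points passed the test: Klkb1 in PH80_HC against PH80, and Klkb1, C1ra, C2 and C8b in PH80 against PH70, while most open points lie right of the dotted line in the left and middle panels and left of it in the right panel.

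Of the contact system, in which prekallikrein, kininogen and factors XI and XII activate each other on surfaces, Klkb1, the gene of plasma prekallikrein (GRCm38, chromosome 8, 45266689 to 45294859, minus strand), fell. Klkb1 had 3031, 2092 and 2927 normalised reads in PH80 replicates 1 to 3, against 4861, 5703 and 4988 in PH70. Every PH80 library lay below every PH70 library. The mean was 2683 ± 515 in PH80 and 5184 ± 454 in PH70 (SD, n = 3 each), 1.95-fold lower in PH80 (log2 difference -0.97, SE 0.20, limma adjusted p = 0.0199). Part of its exons, 423 bases, overlap Gm45753 on the same strand, so some of its reads are uncertain. F11, which lies next to Klkb1 on chromosome 8 and encodes factor XI, averaged 1464 ± 166 in PH80 and 1776 ± 86.7 in PH70 (SD, n = 3 each; log2 difference -0.28, limma adjusted p = 0.448). F12, the gene of factor XII, averaged 8744 ± 1155 in PH80 and 12928 ± 1561 in PH70 (log2 difference -0.57, limma adjusted p = 0.181). Kng1, the gene of kininogen, the precursor of bradykinin, averaged 45298 ± 9207 in PH80 and 57600.2 ± 15646 in PH70, with overlapping libraries, and its near copy Kng2 could take part of its reads.

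The vitamin K-dependent proteins, which need a vitamin K-driven modification to bind membranes, were lower in mean in PH80 in 6 of 6 genes, and 0 of 6 passed the limma test. At an unadjusted p under 0.05 there were 4 of 6, edgeR called 0, and DESeq2 called 2, F2 and Proc. The shares of all genes were 21.4%, 2.93% and 7.57%. Proc, the gene of the anticoagulant protein C (chromosome 18, 32123126 to 32139570), had 6700.0, 6226 and 6734 normalised reads in PH80, against 11941, 10984 and 9468 in PH70. The groups do not overlap, and PH80 libraries lay close together. The log2 difference of Proc was -0.71 (SE 0.21, limma adjusted p = 0.0826), and with the length trend removed it was -0.87 (limma adjusted p = 0.0111). F2, the gene of prothrombin, averaged 22857 ± 2893 in PH80 and 39103 ± 5089 in PH70 (SD, n = 3 each; log2 difference -0.77, limma adjusted p = 0.116). F7, F9 and F10, the genes of factors VII, IX and X, had log2 differences of -0.45, -0.51 and -0.43, and Pros1 had -0.23, with overlapping libraries for F9 and Pros1. Of the nonenzymatic partners, F13b, the carrier subunit of the clot-crosslinking factor XIII, had 1240.4, 1076 and 2904 normalised reads in PH80, against 3867, 5038 and 3213 in PH70. PH80 replicate 3 lay just under the lowest PH70 library and far above the other PH80 libraries. The log2 difference of F13b was -1.34 (SE 0.42, limma adjusted p = 0.0932), and without PH80 replicate 3 it was -1.78 (limma adjusted p = 0.0264). The adjusted p was also under the threshold without PH80_HC replicate 3 (0.0261), and over its alternatives it ran up to 0.299. F5, the cofactor of factor Xa, had a log2 difference of -0.76 (SE 0.25, limma adjusted p = 0.115), with no overlap.

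Among inhibitors, fibrinolysis genes and other plasma proteins, 0 of 7 passed the limma or the edgeR test in PH80 against PH70. An unadjusted p under 0.05 was found in 2 (21.4% of all genes), and DESeq2 called 2, Plg and Apoh (7.57% of all genes). Apoh, the gene of beta-2-glycoprotein I, which binds anionic phospholipids, came closest. Apoh had 20658, 19805 and 22691 normalised reads in PH80, against 35985, 39840.5 and 32418 in PH70. The groups do not overlap and each was tight. The log2 difference of Apoh was -0.77 (SE 0.23, limma adjusted p = 0.0793), and without the intensity trend in the limma fit its adjusted p was 0.0385. Serpinc1, the gene of antithrombin, whose exons overlap Zbtb37 on the opposite strand, averaged 33776 ± 3216 in PH80 and 49479.6 ± 3208 in PH70 (SD, n = 3 each; log2 difference -0.55, limma adjusted p = 0.254). Plg, the gene of plasminogen, averaged 35008 ± 1882 in PH80 and 57843 ± 10071 in PH70 (log2 difference -0.71, limma adjusted p = 0.193). Serpind1 (heparin cofactor II) and Serpinf2 (the plasmin inhibitor alpha-2-antiplasmin) differed by -0.39 and -0.33 on the log2 scale, with no overlap. Cpb2, whose product protects fibrin from plasmin, averaged 12063 ± 597 in PH80 and 11567 ± 2710.4 in PH70, and Hrg, the heparin-binding histidine-rich glycoprotein, averaged 13677 ± 6703 in PH80 and 20666 ± 4829.5 in PH70, both with overlap.

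The complement genes that fell in PH80 act at 3 steps. C8b encodes a chain of C8, a part of the membrane pore (chromosome 4, 104766317 to 104804548, plus strand). C8b had 3582, 2955 and 5936 normalised reads in PH80, against 9081, 13251 and 8609.6 in PH70. The groups do not overlap, although PH80 replicate 3 was nearer to PH70 than the other PH80 libraries. C8b was 2.54-fold lower in PH80 (log2 difference -1.35, SE 0.27, limma adjusted p = 0.0171, n = 3 per group). C2, the protease of the classical and lectin C3 convertase (chromosome 17, 34862604 to 34898265, minus strand), had 1323, 1486 and 1325 normalised reads in PH80, against 2116, 2290.4 and 2937 in PH70. Its PH80 libraries all lay below its PH70 libraries. C2 was 1.76-fold lower in PH80 (log2 difference -0.82, SE 0.19, limma adjusted p = 0.0342, n = 3 per group), and 225 bases of its exons overlap Gm20547 on the same strand. C1ra, a protease of the C1 complex that starts the classical route (chromosome 6, 124512405 to 124523443, plus strand), had 1869, 2203 and 2219 normalised reads in PH80, against 3223, 4422 and 4136 in PH70. Here too the groups do not overlap. C1ra was 1.86-fold lower in PH80 (log2 difference -0.90, SE 0.21, limma adjusted p = 0.034, n = 3 per group), and reads of its near copy C1rb could be counted with it.

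The other complement genes had lower means in PH80 that did not pass the test. In the lectin route, Masp1 had 1115, 1383 and 1626 normalised reads in PH80, against 1807, 2369 and 2522 in PH70. The groups do not overlap, and the log2 difference was -0.70 (SE 0.23, limma adjusted p = 0.113). Masp2, the other protease of that route, differed by -0.44, and 1742 bases of its exons overlap Tardbp on the opposite strand. The mannose-binding lectins Mbl1 and Mbl2 differed by -0.076 and -0.64 with overlapping libraries. Mbl2 was lowest in PH80 replicate 2, at 4040.3 normalised reads, and reached 16553 in PH80 replicate 1. Of the terminal genes, C9, the pore-forming chain, differed by -0.86 (limma adjusted p = 0.126), C6 by -0.74, C8a by -0.71 and C8g by -0.0083 on the log2 scale. C8a lies beside C8b on chromosome 4 and had no overlap between groups. C8g, whose transcript is short (1150 bases), was highest in PH80_HC replicate 3 (25248 normalised reads) and lowest in PH80_G+H replicate 2 (5303) and PH70 replicate 3 (5602), the libraries with the most negative slope on transcript length and with the 2 most positive ones, and the part of that slope in the spread of C8g was not tested. C4b, a substrate of the C1 and lectin proteases with a near copy, C4a, averaged 17849 ± 1732 in PH80 and 26332 ± 1145 in PH70 (SD, n = 3 each; log2 difference -0.57, limma adjusted p = 0.219). C3 and Cfb, the parts of the alternative convertase, differed by -0.039 and -0.27 with overlapping libraries. Of the regulators, Cfi, the protease that inactivates C3b and C4b, differed by -0.68 and Vtn by -0.45, both without overlap, and C4bp, the C4b-binding protein, by -0.066. The signs of Fgg, C3, C8g, Mbl1 and C4bp turned with every library at the same total.

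Each of the 4 calls in PH80 against PH70 was lost with some single library left out, and those of C1ra and C2 also under other settings. A fit with fewer libraries has less power, so a lost call is not by itself a smaller difference. The limma adjusted p-values of C1ra and C2 were 0.0528 and 0.0541 without the intensity trend, and 0.0908 and 0.064 at the same total. Without PH70 replicate 2, or without PH80 replicate 2, 0 of the 39 genes passed the limma test. The count was 1 without PH80 replicate 1, and 2 without PH70 replicate 1, PH70 replicate 3 or PH80_G+H replicate 1. The last of these enters only through the shared estimate of the spread. Over all genes, limma called 480 with all libraries and 61 to 725 with 1 library left out. PH80 replicate 2 was the library with the most neutrophil and acute phase reads in its group. Without it, the log2 difference was -0.80 for Klkb1, -1.13 for C8b, -0.87 for C2 and -0.93 for C1ra. The limma adjusted p-values were 0.0764, 0.0684, 0.0715 and 0.0786 in that order. With all libraries the differences were -0.97, -1.35, -0.82 and -0.90. Without that library, Klkb1 and C8b thus differed less, and C2 and C1ra differed more. On the recovered reads, edgeR called the same number, 1 coagulation and 3 complement genes, and DESeq2 called 6 and 3, against 2.93% of all genes called by edgeR and 7.57% by DESeq2.

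**Figure D2:**
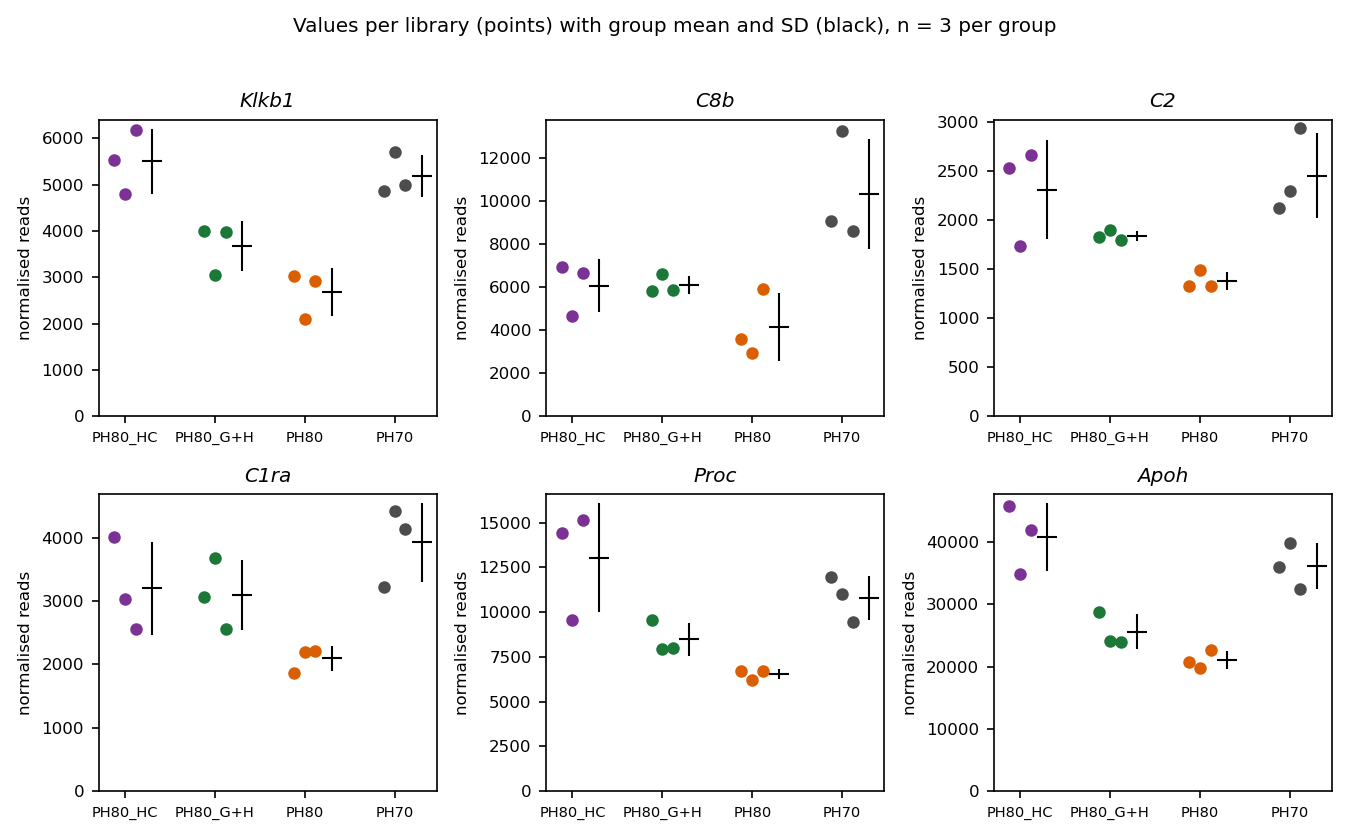
Normalised reads per library (y axis, from 0) of Klkb1, C8b, C2, C1ra, Proc and Apoh in 4 groups (x axis), with the mean and SD of 3 libraries in black. All PH80 points lie below all PH70 points in each panel, and Klkb1 in PH80_HC (4794 to 6186) lies above Klkb1 in PH80 (2092 to 3031).

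The fibrinogen chains differed widely between libraries of one group, and 0 of 3 passed the limma, edgeR or DESeq2 test in the comparisons given here, nor had an unadjusted p under 0.05. Fga, Fgb and Fgg, which encode the alpha, beta and gamma chains of the fibrin precursor, lie together on chromosome 3 between 83007724 and 83049863. Fga had 343603, 123649 and 153411 normalised reads in PH80_HC replicates 1 to 3, 124171, 163170 and 120092 in PH80_G+H, 62189, 217722 and 121714 in PH80, and 100698, 222301 and 126727 in PH70. The groups overlap, with PH80_HC replicate 1 highest and PH80 replicate 1 lowest. As the mean log2 deviation of the 3 chains from their mean over 12 libraries, PH80_HC replicate 1 stood at 1.19, PH70 replicate 2 at 0.51, PH80 replicate 2 at 0.46 and PH80 replicate 1 at -0.99. Fgb and Fgg had the same highest and lowest library as Fga. The log2 differences of Fga, Fgb and Fgg were -0.26, -0.14 and -0.059 in PH80 against PH70, with limma adjusted p-values of 0.807, 0.886 and 0.956. In PH80_HC against PH80 they were 0.66, 0.70 and 0.58, with limma adjusted p-values of 0.633, 0.561 and 0.611. In PH80_G+H against PH80 they were 0.19, 0.067 and 0.058, and those of Fgb and Fgg were below 0 with every library at the same total (-0.030 and -0.040).

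C3 had 418701, 197479 and 391310 normalised reads in PH80_HC, 236512, 287114 and 196457 in PH80_G+H, 142544, 330381 and 159506 in PH80, and 155107, 197945 and 265543 in PH70. The 2 highest PH80_HC libraries and the highest PH80 library stood above the rest, and the groups overlap. A list of 20 acute phase genes, without fibrinogen and C3, had mean log2 deviations of 0.90 in PH80_HC replicate 1, 1.57 in PH80_HC replicate 3 and 1.12 in PH80 replicate 2, and between -1.09 and 0.05 in the other 9 libraries. PH70 replicate 2, the second highest library for the fibrinogen chains, had -0.10 in that list. Of the 20 acute phase genes, 0 passed the limma or edgeR test in PH80 against PH70 or in PH80_HC against PH80, 2 and 5 had an unadjusted p under 0.05, and DESeq2 called 1 in each. Of all genes, 21.4% and 14.3% had such an unadjusted p, and DESeq2 called 7.57% and 4.04%.

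**Figure D3:**
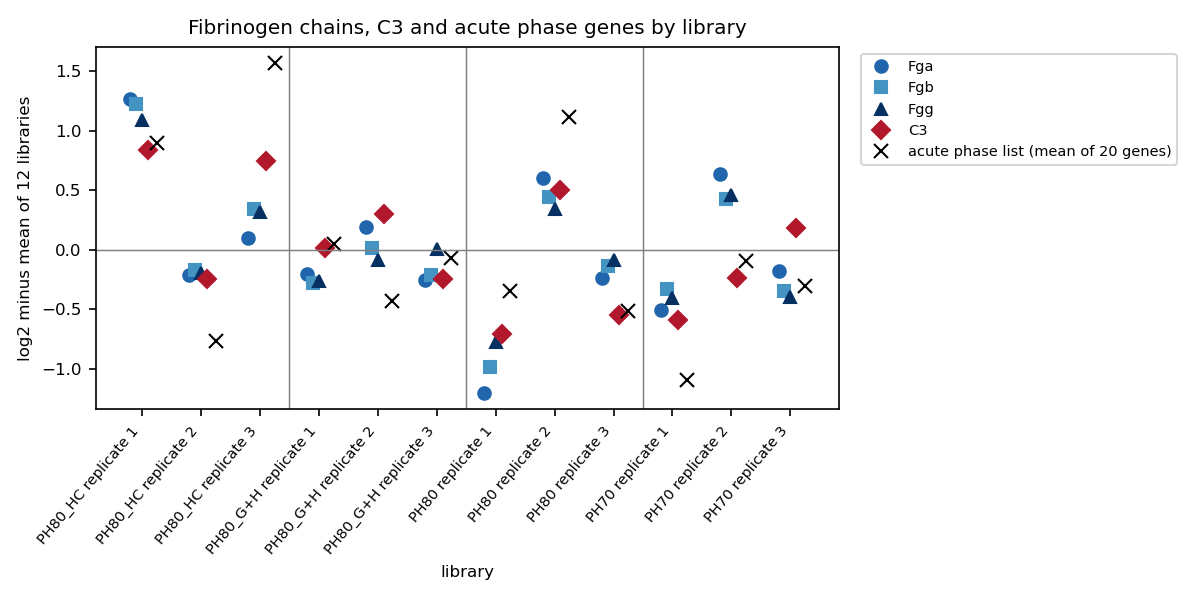
Log2 level of Fga, Fgb, Fgg and C3, and the mean over 20 acute phase genes, in each of 12 libraries (x axis) relative to the mean of 12 libraries (y axis). The fibrinogen chains move together from library to library, from 1.19 on average in PH80_HC replicate 1 to -0.99 in PH80 replicate 1, and the groups overlap.

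In PH80_HC livers, set against PH80, 1 of the 39 genes rose, Klkb1 (limma with Benjamini-Hochberg adjustment), against 0.891% of all genes called in either direction and 0.652% called higher. It was 1 of 22 coagulation genes, and 0 of 17 complement genes passed the limma test. At an unadjusted p under 0.05 the counts were 10 of 22 and 7 of 17, against 14.3% of all genes. On the recovered reads edgeR called 1 coagulation gene and 0 complement genes, and DESeq2 called 8 and 3, against 0.923% of all genes called by edgeR and 4.04% by DESeq2. Of the 39 genes, 38 had a higher mean log2 value in PH80_HC, the exception being F11, and the count was 32 at the same total and 32 after quantile normalisation. Genes whose sign turned at the same total were Cpb2, C6, C8a, Masp1, Masp2 and C4bp. Higher means were also found in 9 of 10 hepatocyte markers and 14 of 18 listed hepatocyte transcription factors. The median log2 difference was 0.60 for the coagulation and 0.59 for the complement genes, against 0.013 for all genes. With every library at the same total the medians were 0.27 and 0.26, against -0.31 for all genes. The PH80_HC libraries all lay above the PH80 libraries in 9 of 22 coagulation and 5 of 17 complement genes, against 8.26% of all genes.

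Klkb1 had 5527, 4794 and 6186 normalised reads in PH80_HC, against 3031, 2092 and 2927 in PH80. Every PH80_HC library lay above every PH80 library. Its mean was 5503 ± 696 in PH80_HC and 2683 ± 515 in PH80 (SD, n = 3 each), 2.07-fold higher in PH80_HC (log2 difference 1.05, SE 0.20, limma adjusted p = 0.0291). This comparison and PH80 against PH70 share the PH80 libraries. The call was lost at the same total (0.72, limma adjusted p = 0.0913), when only the libraries of these 2 groups were fitted (limma adjusted p = 0.13), and without any PH80 library (0.0521 to 0.0691), without PH80_HC replicate 1 (0.0814) or 3 (0.0685), without PH70 replicate 2 (0.0513) and without PH80_G+H replicate 3 (0.0522). Without PH80_HC replicate 2, 4 of the 39 genes passed. Over all genes, limma called 112 with all libraries and 28 to 125 with 1 library left out. After Klkb1, Proc came next, with 14409, 9533 and 15160.5 normalised reads in PH80_HC, against 6700.0, 6226 and 6734 in PH80. The groups do not overlap, and the log2 difference was 0.96 (SE 0.21, limma adjusted p = 0.0529). Apoh had 45710.2, 34832 and 41862 normalised reads in PH80_HC, against 20658, 19805 and 22691 in PH80. Again the groups do not overlap, and the log2 difference was 0.95 (SE 0.23, limma adjusted p = 0.074, and 0.0428 without the intensity trend).

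F5 had 7800.2, 8196 and 6334 normalised reads in PH80_HC, against 3162, 4317 and 5286 in PH80, without overlap (log2 difference 0.83, limma adjusted p = 0.142). Kng1 averaged 96035 ± 25204 in PH80_HC and 45298 ± 9207 in PH80 (SD, n = 3 each; log2 difference 1.07, limma adjusted p = 0.145), and Hrg averaged 29768 ± 11034 in PH80_HC and 13677 ± 6703 in PH80 (log2 difference 1.17, limma adjusted p = 0.161), these being the largest differences of the list. F11, the neighbour of Klkb1, averaged 1384 ± 413 in PH80_HC and 1464 ± 166 in PH80 (log2 difference -0.12), and the difference between the neighbours was not tested. F11 was lowest in PH80_HC replicate 3 (996 normalised reads), where Klkb1 was highest. Among complement genes, C2 had 2529.9, 1734 and 2661 normalised reads in PH80_HC, against 1323, 1486 and 1325 in PH80, without overlap (log2 difference 0.72, limma adjusted p = 0.101). C4b had 36332, 23116 and 41087 in PH80_HC, against 17943, 19532 and 16072 in PH80, without overlap (log2 difference 0.87, limma adjusted p = 0.127). C1ra had 4008, 3038 and 2563 in PH80_HC, against 1869, 2203 and 2219 in PH80, also without overlap (log2 difference 0.59, limma adjusted p = 0.211). Mbl2 had 21372, 18507 and 14313 in PH80_HC, against 16553, 4040.3 and 10355 in PH80, with overlap (log2 difference 1.01, limma adjusted p = 0.262). Without PH80 replicate 2 the log2 difference of Mbl2 was 0.44. The terminal genes C6 and C8a, with Masp1 and C4bp, lay close to 0 in this comparison (0.044, 0.034, 0.046 and 0.039 on the log2 scale).

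In PH80_G+H livers, set against PH80, 0 of the 39 genes passed the limma test, and edgeR and DESeq2 also called 0, against 0.119% of all genes called by limma, 0.0875% by edgeR and 1.61% by DESeq2. At an unadjusted p under 0.05, 2 of 22 coagulation and 7 of 17 complement genes were counted, against 10.5% of all genes. All 39 genes had a higher mean log2 value in PH80_G+H, and 35 did at the same total, where Fgb, Fgg, Cpb2 and C8g turned. Means were also higher in 8 of 10 hepatocyte markers and 15 of 18 listed hepatocyte transcription factors. The median log2 difference was 0.33 for the coagulation and 0.42 for the complement genes, against -2e-05 for all genes (0.23, 0.32 and -0.10 at the same total). All PH80_G+H libraries lay above all PH80 libraries in 10 of 22 and 6 of 17 genes, against 8.82% of all genes. Among coagulation genes, F5 had 6017, 9891 and 5746 normalised reads in PH80_G+H, against 3162, 4317 and 5286 in PH80, without overlap (log2 difference 0.75, SE 0.25, limma adjusted p = 0.291). Klkb1 had 4001, 3051 and 3971 in PH80_G+H, against 3031, 2092 and 2927 in PH80, where replicate 2 of PH80_G+H was barely above the highest PH80 library (log2 difference 0.46, limma adjusted p = 0.431). F13b and F9 differed by 0.81 and 0.37, with overlap. With 1 library left out, F13b ran from 0.54 (without PH80 replicate 2) to 1.26 (without PH80 replicate 3) and F9 from 0.22 (without PH80 replicate 1) to 0.57 (without PH80 replicate 3). Among complement genes, C4b had 28542, 32629.8 and 25016 in PH80_G+H, against 17943, 19532 and 16072 in PH80, without overlap (log2 difference 0.68, SE 0.25, limma adjusted p = 0.341). C1ra had 3057, 3676 and 2567 in PH80_G+H, against 1869, 2203 and 2219 in PH80, and Masp1 had 1766, 2379.5 and 2021, against 1115, 1383 and 1626, both without overlap (log2 differences 0.55 and 0.59, limma adjusted p = 0.355 and 0.382). Mbl2 had 20258, 16919 and 13976 in PH80_G+H, against 16553, 4040.3 and 10355 in PH80, with overlap (log2 difference 0.93, limma adjusted p = 0.427). Without PH80 replicate 2 the log2 difference was 0.36 for Mbl2 and 0.29 for Klkb1, and without PH80_G+H replicate 2 it was 0.50 for F5.

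**Figure D4:**
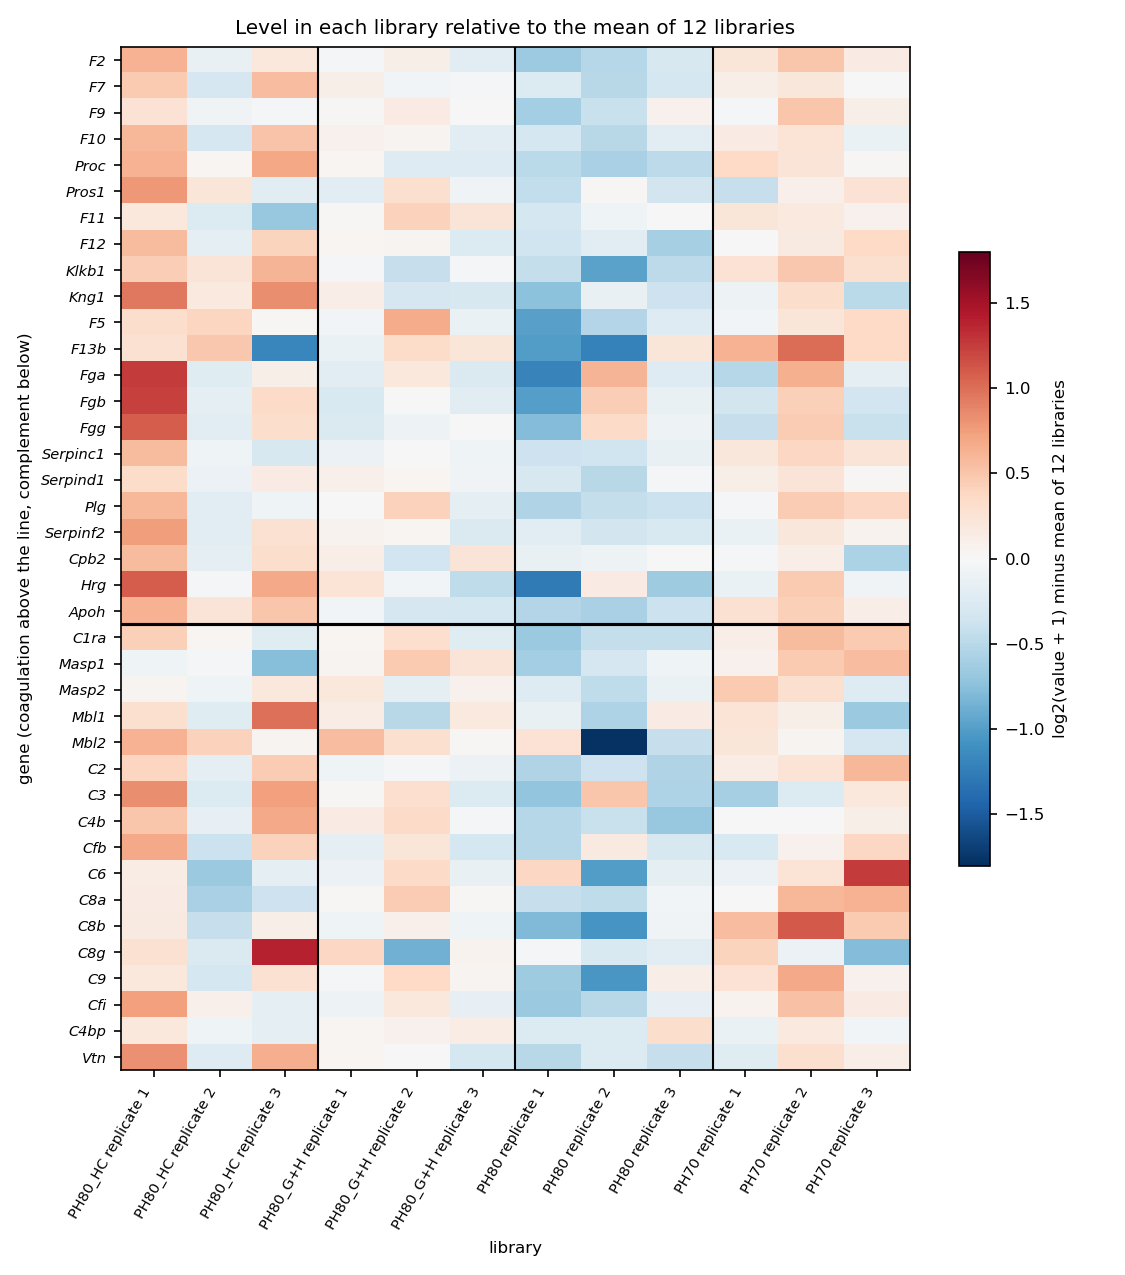
Log2 level of each gene (22 coagulation genes above the line, 17 complement genes below it) in 12 libraries (columns) relative to its mean over 12 libraries (colour scale, log2 units). The 3 PH80 columns are mostly blue and PH80_HC replicate 1 is mostly red, while PH80_HC replicate 2 is pale or blue in most genes.

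The direct comparison of the arms, PH80_HC against PH80_G+H, had 0 of 39 genes past the limma test, against 0.255% of all genes. At an unadjusted p under 0.05, 5 of 22 coagulation and 1 of 17 complement genes were counted (13.6% of all genes). On the recovered reads edgeR called 0 (0.374% of all genes). DESeq2 called 1, Apoh, or 2.56% of the 39 genes, close to its share of all genes (2.41%). Apoh averaged 40802 ± 5516 in PH80_HC and 25621 ± 2749 in PH80_G+H (SD, n = 3 each; log2 difference 0.67, limma adjusted p = 0.245), without overlap. Klkb1 had a log2 difference of 0.59 (limma adjusted p = 0.238), and Masp1 one of -0.54 (limma adjusted p = 0.327; -0.30 without PH80_HC replicate 3), both without overlap. The medians were 0.28 for the coagulation and 0.080 for the complement genes, against 0.018 for all genes, and at the same total they were 0.042 and -0.15, against -0.21 for all genes. Libraries did not overlap in 3 genes that were higher in PH80_HC and 1 that was lower, out of 39 (8.71% and 8.4% of all genes).

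Against PH70, the treated arms had 0 of the 39 genes past the limma, edgeR or DESeq2 test in either arm. Of all genes, edgeR called 0.119% and DESeq2 2.01% in PH80_HC against PH70. In PH80_G+H against PH70 they called 0.00796% and 0.525%. In PH80_HC against PH70, where 0.231% of all genes were called, an unadjusted p under 0.05 was found in 1 of 22 coagulation and 3 of 17 complement genes (15.8% of all genes), and 2 of 39 were lower without overlap (9.07% of all genes). The median log2 difference was 0.16 for the coagulation and -0.027 for the complement genes, and at the same total it was -0.053 and -0.24, against -0.20 for all genes. The coagulation median was 0.018 without PH80_HC replicate 1 and 0.31 without PH80_HC replicate 2, and the complement median was -0.13 and 0.039 without these libraries and 0.057 without PH70 replicate 2. C8b averaged 6078 ± 1245 in PH80_HC and 10314 ± 2554 in PH70 (SD, n = 3 each, log2 difference -0.76, limma adjusted p = 0.247), without overlap. Masp1 averaged 1441 ± 382 in PH80_HC and 2233 ± 377 in PH70 (log2 difference -0.66, limma adjusted p = 0.247). Kng1, the coagulation gene with the smallest unadjusted p, was higher in mean, with overlap. It averaged 96035 ± 25204 in PH80_HC and 57600 ± 15646 in PH70 (log2 difference 0.74). In PH80_G+H against PH70, where 0.00796% of all genes were called, 2 of 22 and 1 of 17 had an unadjusted p under 0.05 (5.97% of all genes), 7 of 39 were lower without overlap (7.57% of all genes), and the medians were -0.11 and -0.15. The medians were -0.22 and -0.26 without PH70 replicate 1, and -0.033 and -0.065 without PH70 replicate 2. C8b averaged 6099 ± 436 in PH80_G+H (log2 difference -0.73 from PH70, limma adjusted p = 0.654), without overlap. Klkb1, the coagulation gene with the smallest unadjusted p, averaged 3675 ± 540 in PH80_G+H (log2 difference -0.50 from PH70), also without overlap. Over the 4 groups, the moderated F test of limma called 1 of the 39 genes, Klkb1 (adjusted p = 0.0347), against 1.85% of all genes, and C8b, Proc and Apoh followed at 0.07, 0.0854 and 0.0927.

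As a share of all values of a library, the 22 coagulation genes took 3.89 ± 1.19% in PH80_HC, 3.20 ± 0.33% in PH80_G+H, 3.10 ± 0.94% in PH80 and 3.48 ± 0.71% in PH70 (SD, n = 3 each). The 17 complement genes took 2.29 ± 0.36%, 2.15 ± 0.33%, 1.90 ± 0.46% and 2.07 ± 0.39% in the same groups. Both shares overlap between all groups. Within the coagulation share, the 3 fibrinogen chains took 2.27 ± 0.96% in PH80_HC, 1.75 ± 0.26% in PH80_G+H, 1.87 ± 0.88% in PH80 and 1.83 ± 0.59% in PH70. Within the complement share, C2, C3, C4b and Cfb together took 1.48 ± 0.30%, 1.32 ± 0.27%, 1.21 ± 0.52% and 1.17 ± 0.34% in the same groups, and most of this was C3. Both shares thus rest mostly on a few abundant genes. Smaller groups of genes took less. The terminal complement genes took 0.193 ± 0.042% in PH80 and 0.291 ± 0.0294% in PH70, and the vitamin K-dependent genes took 0.218 ± 0.0197% in PH80 and 0.314 ± 0.0171% in PH70. Alb, the gene of albumin, took 9.19 ± 2.19% in PH80_HC, 10.02 ± 1.51% in PH80_G+H, 7.67 ± 0.904% in PH80 and 10.7 ± 0.911% in PH70, with every PH80 library below every PH70 library (log2 difference -0.61, SE 0.79, limma adjusted p = 0.688, DESeq2 adjusted p = 0.0481). That SE rests largely on the intensity trend of the fit. The SD that limma assumed for a gene at the level of Alb was 1.48, against 0.22 found within groups.

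**Figure D5:**
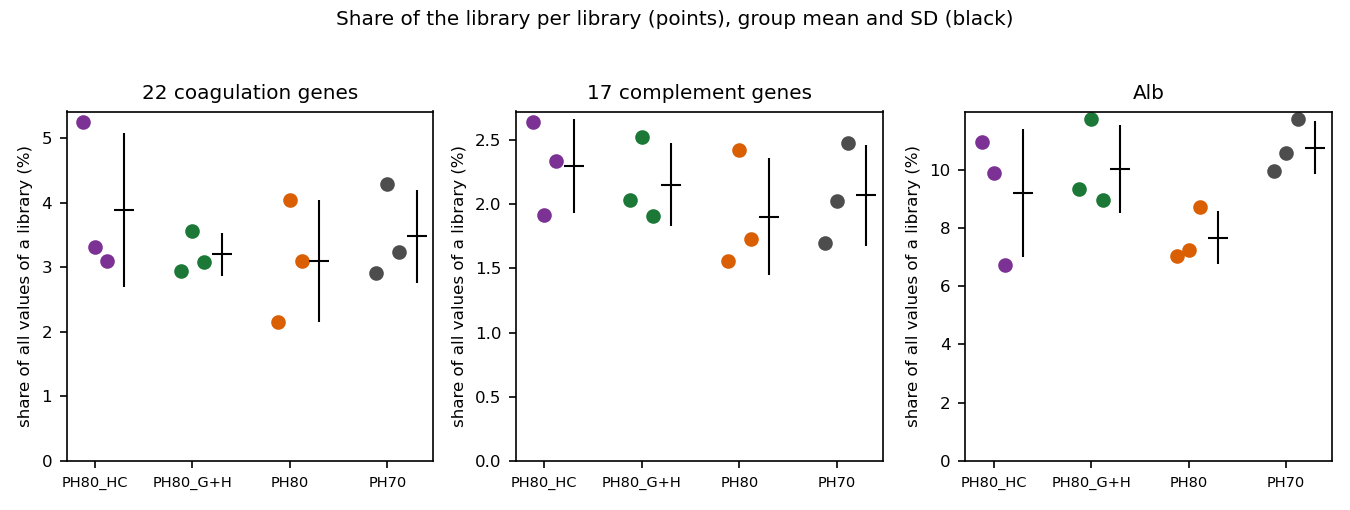
Share of all values of a library (y axes, %, from 0) held by 22 coagulation genes, 17 complement genes and Alb in 4 groups (x axes), with points for libraries and the mean and SD of 3 libraries in black. The coagulation and complement shares overlap between groups, and PH80_HC replicate 1 holds the highest coagulation share, 5.25%.

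Other genes of the same pathways were counted from lists. Of 29 other coagulation and fibrinolysis genes, 28 were tested and 0 passed the limma test in PH80 against PH70, in PH80_HC against PH80 or in PH80_G+H against PH80, where 7, 8 and 4 had an unadjusted p under 0.05, edgeR called 0, and DESeq2 called 4, 0 and 0. An unadjusted p under 0.05 was found in 21.4%, 14.3% and 10.5% of all genes in the same comparisons, and DESeq2 called 7.57%, 4.04% and 1.61% of all genes. Of 29 other complement genes, 23 were tested, and 1 passed the limma test in PH80 against PH70 (3.82% of all genes) and 1 in PH80_HC against PH80 (0.891% of all genes). C1s1, the partner protease of C1ra in the C1 complex, fell in PH80, to 4637 ± 819 normalised reads against 8417 ± 898 in PH70 (SD, n = 3 each; log2 difference -0.87, limma adjusted p = 0.028). Crp, whose product binds phosphocholine and C1q, rose in PH80_HC, to 6526 ± 1925 normalised reads against 3006 ± 524 in PH80 (log2 difference 1.09, limma adjusted p = 0.0421). Among 18 hepatocyte transcription factors, 5 fell in PH80 against PH70 (3.82% of all genes were called), namely Cebpa, Ppara, Dbp, Tef and Hlf, with log2 differences of -1.36, -1.66, -3.84, -1.81 and -1.26. In PH80_HC against PH80, Dbp and Tef rose, 2 of 18 (0.891% of all genes), and in PH80_G+H against PH80, Dbp rose, 1 of 18 (0.119% of all genes). Whether Dbp, Tef and Hlf moved with the time of day of collection was not tested. Hnf4a, the factor named in the G+H arm, had 13577, 12742 and 10425 normalised reads in PH80_G+H, against 7482, 12708 and 10237 in PH80, with overlap (log2 difference 0.30, limma adjusted p = 0.679). In PH80_HC against PH80 its log2 difference was 0.50 (limma adjusted p = 0.352), and in PH80 against PH70 it was -0.42 (limma adjusted p = 0.316).

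Markers of other cell types differed between libraries and in part between groups. The 13 neutrophil markers summed to between 331 and 6188 normalised reads in PH80, the highest in replicate 2, against 163 to 640.0 in PH70, and between 0 and 4 of the 13 were at 0 in a library. Macrophage markers summed to 14197 to 34199.8 in PH80 and 11933 to 16389.8 in PH70, with 0 of 10 at 0. They summed to 22106 to 35994 in PH80_HC and 13740 to 18930 in PH80_G+H. Of the 10, 10 had a higher mean in PH80_HC than in PH80_G+H, 9 without overlap (8.71% of all genes). An unadjusted p under 0.05 was found in 6 (13.6% of all genes), limma and edgeR called 0, and DESeq2 called 1 (2.41% of all genes). Stellate cell markers summed to 5604 to 7786 in PH80_HC and 8731 to 24325.6 in PH80. Lymphocyte markers summed to 164 to 531 in PH80_HC and 100.0 to 263 in PH80, and sinusoidal endothelial markers to 5629 to 8173 in PH80 and 8110 to 9283 in PH70. Of 6 cholangiocyte markers tested, 1, Prom1, rose in PH80 (3.82% of all genes were called), to 326 ± 105 normalised reads against 21.01 ± 13.01 in PH70 (SD, n = 3 each; log2 difference 3.99, limma adjusted p = 0.00716), and the list summed to 2431 to 6928 in PH80 and 1146 to 11957 in PH70, with 0 markers at 0. Platelet and megakaryocyte markers summed to 271 to 550.3 in PH80 and 222 to 413 in PH70, with between 0 and 3 of 9 at 0 in a library. Of 5 tested in that list, 5 had a higher mean log2 value in PH80 than in PH70 (median 0.55), 0 passed the limma, edgeR or DESeq2 test and 1 had an unadjusted p under 0.05 (21.4% of all genes). Hepatocyte markers took 14.9 ± 0.736% of values in PH80 and 18.1 ± 1.38% in PH70 (SD, n = 3 each), and 0 of 10 passed the limma or edgeR test (1 had an unadjusted p under 0.05, against 21.4% of all genes, and DESeq2 called 1, against 7.57%). The part of these cell types in the differences of the coagulation and complement genes was not tested.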

How the data were processed

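The deposited table holds normalised read counts of 12 liver libraries, 3 per group. The authors divided gene counts by DESeq2 size factors on GRCm38/mm10, per the submitters' processing notes. Libraries were TruSeq Stranded mRNA from 100 ng of column-purified total RNA, per the labels' protocols. The sources used here do not name the aligner, the counter or whether counting used strand. The deposited signal values came back as whole reads in 100% of genes in every library (tolerance 0.01 reads), which gave totals of 9720887 to 44526542 reads and served the count tests.

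Genes that reached 10 in 3 or more libraries were tested with limma 3.58.1 (R 4.3.3) on log2(value + 1), with an intensity trend and all 12 libraries in 1 fit with group as the factor. The trend sets the SD that limma assumes for a gene of a given level, which enters its SE. For some abundant genes this assumed SD exceeded the SD within groups: 0.39 against 0.15 for Apoh, 0.40 against 0.24 for F2 and 0.43 against 0.24 for Serpinc1. For Klkb1 the assumed SD was 0.28 against 0.22, and for Fga 0.60 against 0.68. P-values were adjusted by Benjamini-Hochberg over 12570 genes, with a threshold of 0.05, for 6 comparisons and a moderated F test. Fold changes are on the log2(value + 1) scale. The 22 alternatives include edgeR 4.0.16 and DESeq2 1.42.0 on recovered reads and leaving out each library. Coordinates and lengths are from GENCODE M21 (GRCm38). The limma step was run on simulated reads with the same setting of spread for all genes and no slope on transcript length. That run checked the code only and does not show how well the calls given here hold.

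The members and lists were chosen with earlier results of these data known. Genes given in full were those past the test and up to 4 per set (coagulation, complement) with the smallest unadjusted p in a comparison. Other members, chosen after their values were seen, are named to describe their role.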

Additional observations from a re-analysis of the deposited data

How the results depend on the processing

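The 30 log2 differences checked here were those past the test or with the smallest unadjusted p. All 30 kept their direction in all 22 alternatives that gave a value, and 8 passed the threshold in some alternative but not as reported. Other named genes did change direction. In PH80 against PH70, C3 was at -0.039 as reported, but at 0.049 with edgeR, 0.035 with DESeq2 and 0.080 with the length trend removed. In PH80_G+H against PH80, Fgb and Fgg turned negative with edgeR and DESeq2. All 5 reported calls were lost in some alternative: in PH80 against PH70, Klkb1 in 3, C8b in 3, C1ra in 10 and C2 in 11, and in PH80_HC against PH80, Klkb1 in 9. Of the genes counted as passing, PH80 against PH70 (4) had 2 at the same total, 9 with DESeq2, 2 with a replicate block, and 0 to 5 with 1 library left out. PH80_HC against PH80 (1) had 2 without the intensity trend, 0 at the same total, 11 with DESeq2, 0 with only the 2 compared groups, 3 with the length trend removed, and 0 to 4 with 1 library left out. PH80_HC against PH80_G+H had 1 with DESeq2, which called 2.41% of all genes. Over all genes, leaving out 1 library gave 61 to 725 calls in PH80 against PH70 and 28 to 125 in PH80_HC against PH80. The F test (1) had 0 without the trend, 0 at the same total, 9 with DESeq2, 0 with a replicate block, 4 with the length trend removed, and 0 to 3 with 1 library left out; it has no value for 2 groups alone. At the same total and after quantile normalisation, the median log2 difference in PH80_HC against PH80 was 0.27 and 0.27 for coagulation (0.32 to 0.87 with 1 library left out) and 0.26 and 0.28 for complement. In PH80_HC against PH80_G+H it was 0.042 and 0.055 for coagulation (0.086 to 0.52 with 1 library left out) and -0.15 and -0.11 for complement, and in PH80_HC against PH70 it was -0.083 for coagulation after quantile normalisation and -0.24 and -0.21 for complement. The cause of these changes was not tested. Correlations of deviations between same-numbered libraries ran from -0.367 to 0.373 and were above 0.1 for all 3 numbers in no comparison, so the numbers are not taken as pairs and a call lost under the block is not a weaker effect. With 1 library left out, the medians of PH80_G+H against PH70 ran from -0.22 to -0.033 for coagulation and from -0.26 to -0.065 for complement, and those of PH80_HC against PH70 from 0.018 to 0.31 and from -0.13 to 0.057. The complement median of PH80_HC against PH80_G+H ran from -0.022 to 0.19. Over all genes, PH80 against PH70 had 480 calls (61 to 952 over the alternatives, with 237 at the same total and 952 with DESeq2), PH80_HC against PH80 had 112 (2 to 508), PH80_G+H against PH80 had 15 (0 to 203), PH80_HC against PH80_G+H had 32 (2 to 303), PH80_HC against PH70 had 29 (1 to 253) and PH80_G+H against PH70 had 1 (0 to 66).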
